A study of Mus musculus with 6 samples.

Results

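The genes described here encode the proteins of the mitochondrial ribosome, taken as every probe set whose only gene symbol in the platform annotation begins with Mrpl or Mrps followed by a digit. This gave 85 probe sets of the 35557 in the table, or 77 genes of the 19938 tested, 48 named for the large subunit (Mrpl) and 29 for the small subunit (Mrps). Of several probe sets for 1 gene, that with the highest mean signal was used, and the others are given separately below. Another probe set, shared between Mrpl53 and Ccdc142, carried several symbols and was left out. The samples were organs of Corti, the sensory strip of the cochlea, dissected from mice at postnatal day 15 on a mixed C57BL/6J-129/Sv background. The knockout group was homozygous for an inactivated Pjvk gene (Pjvk-/-) and the control group was wild-type (Pjvk+/+), each with 3 samples hybridised to 1 array each. How Pjvk was inactivated, and whether animals were pooled for a sample, is not given in the sources used here. Pjvk encodes pejvakin, and the study's title concerns peroxisomes and vulnerability to sound.

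Mitochondria keep a ribosome of their own, which translates the few proteins encoded by mitochondrial DNA. Those proteins are core subunits of the respiratory chain and the ATP synthase. Every protein of the mitochondrial ribosome is encoded in the nucleus, made in the cytosol and imported. The large subunit holds the peptide-forming centre and the exit tunnel, and the small subunit reads the mRNA. About the outer layers of both lie proteins with no counterpart in bacteria. The cochlea depends on this machinery, and a well-known cause of hearing loss is a variant of the mitochondrial ribosomal RNA that sensitises the ear to aminoglycosides. The comparison made here is between the genotypes, for the transcripts of this ribosome.

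The medians of the 6 arrays lay between 6.66 and 6.69 on the log2 scale. For Pjvk itself the values were 4.42, 4.36 and 4.21 on the Pjvk-/- and 4.75, 5.06 and 4.96 on the Pjvk+/+ arrays, a difference of -0.59 (standard error, SE, 0.09; adjusted p = 0.105). Its groups did not overlap, and where it lies relative to the inactivated part of the gene was not analysed here. The defining genes of the labelled tissue were measured in both genotypes. Ocm, a calcium buffer of outer hair cells, read 9.79 to 10.05 in knockout against 9.70 to 9.76 in wild-type arrays. Gjb2, the connexin gene of supporting cells, read 10.90 to 11.09 and 10.98 to 11.14.

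No gene of the mitochondrial ribosome passed the test at an adjusted p under 0.05, and most read slightly lower in the knockout. Of the 77 genes, 63 had a lower mean in the knockout, 12 a higher mean and 2 the same mean. The median difference was -0.077 on the log2 scale, a signal 1.05-fold lower, and the differences ran from -0.26 for Mrps18b to 0.177 for Mrps16. Over all genes tested, 7 were called, which is 0.0351%, and the median difference was -0.01 with 53.8% of the genes lower. The lowest adjusted p among the members was 0.204, for Mrps18b. A p that misses the threshold does not show that the levels were equal. The median SE of a member's own difference was 0.062. In RNA of a whole tissue, fewer cells of a type and less RNA per cell cannot be told apart.

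Without adjustment, 11 members were lower and 1 was higher at p under 0.05. The same rule took in 6.66% of all genes on the lower side and 5.74% on the higher side, against 14.3% of the members on the lower side. The 3 knockout values all lay below the 3 wild-type values in 18 members, or 23.4%, against 11.3% of all genes. They all lay above them in 2 members, Mrps16 and Mrpl3, against 6.59% of all genes. Differences were small in most members: 50 of the 77 lay within 0.1 of zero, 26 were lower by more than that and 1 was higher by more.

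**Figure D1:**
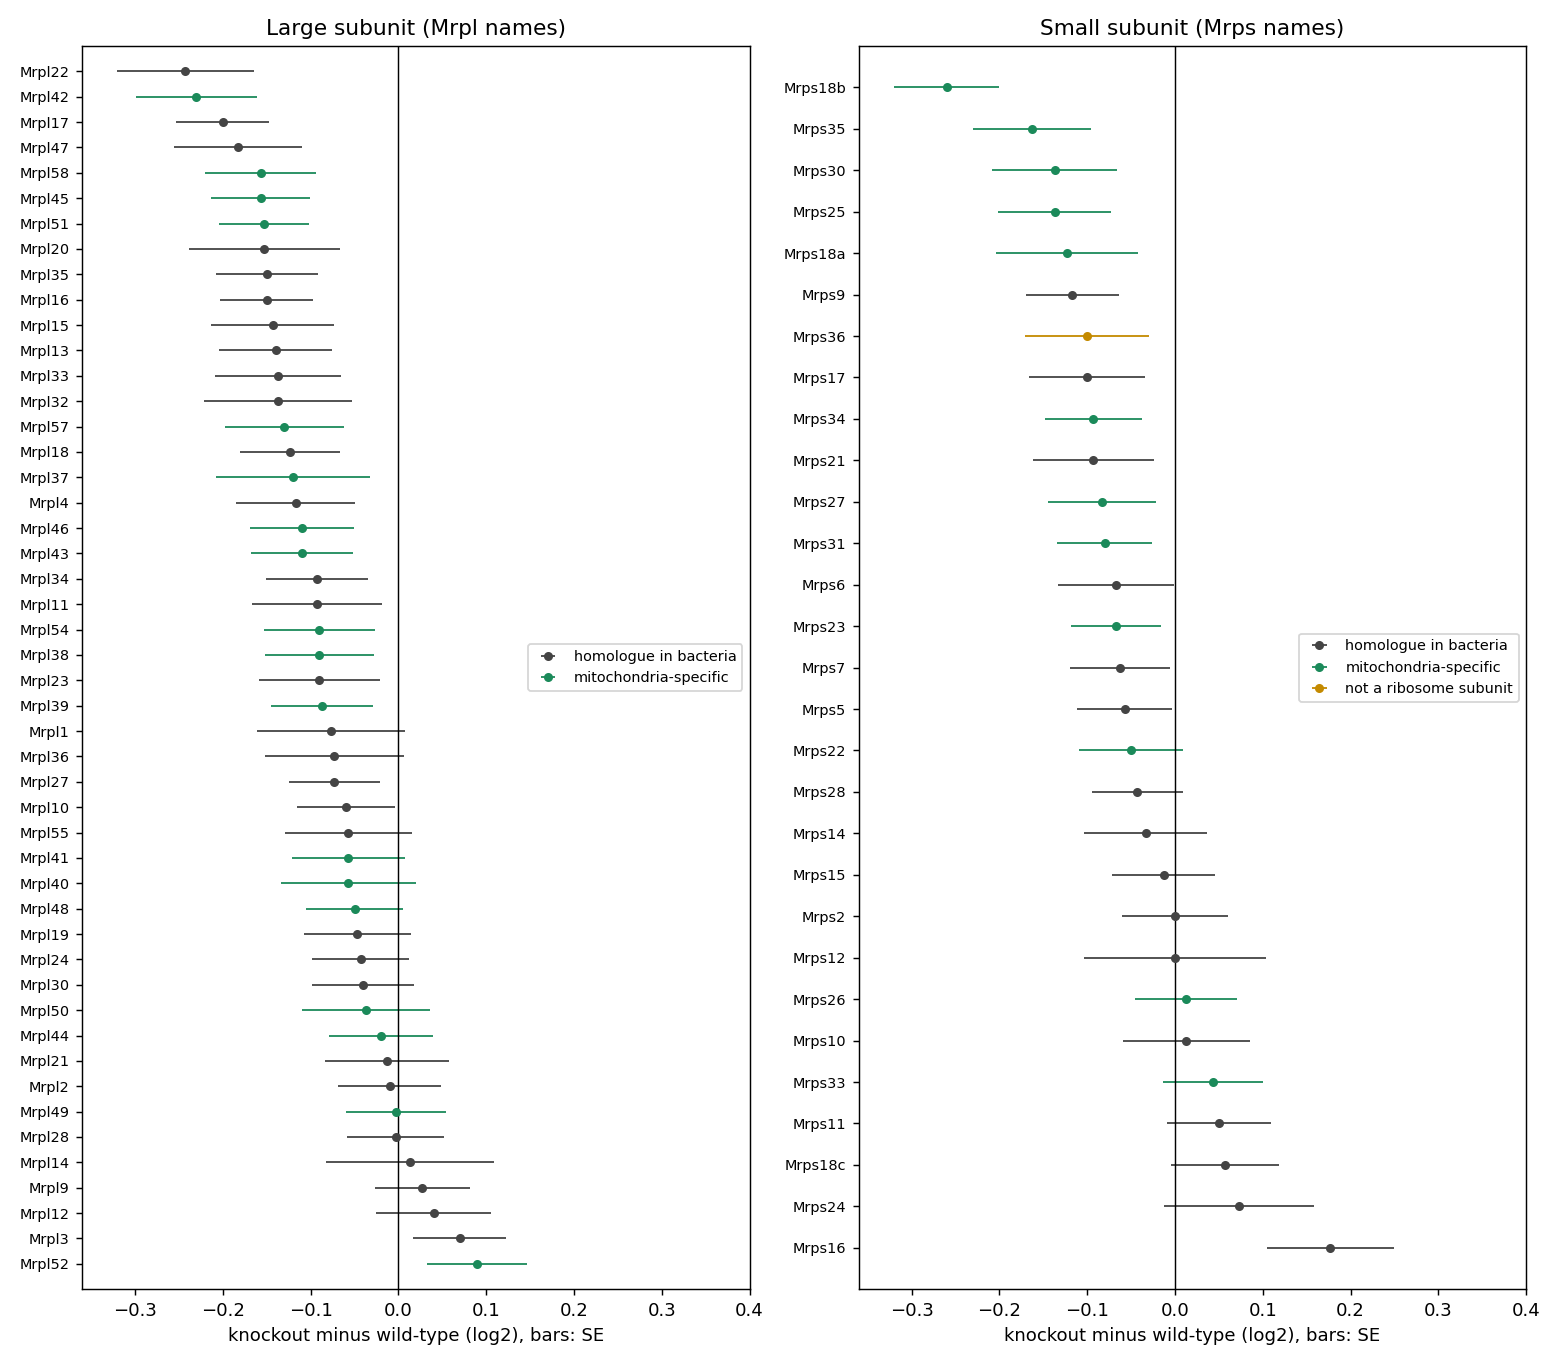
Difference between the knockout and the wild-type mean for each of the 77 genes (x axis, log2; bars, SE from the limma fit, n = 3 arrays a genotype), ordered by size within the large and the small subunit and coloured by descent of the protein. Of the large subunit genes 43 of 48 lie left of zero, and of the small subunit genes 20 of 29.

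The shift was spread over the arrays of each genotype. As a deviation from its own mean over the 6 arrays, the median member stood at -0.045, -0.018 and -0.035 in replicates 1 to 3 of the knockout. In those of the wild-type it stood at 0.043, 0.012 and 0.058. The groups did not overlap in this value, and knockout replicate 2 and wild-type replicate 2 lay closest together. For all genes tested the same median lay between -0.01 and 0.018. Knockout replicate 3 held the lowest value of 28 members and knockout replicate 1 that of 25, ties counted. Wild-type replicate 3 held the highest value of 29 members and wild-type replicate 1 that of 22. Without wild-type replicate 2, the count of members lower at an unadjusted p under 0.05 was 17 in place of 11, and 37 in place of 18 were separated downward, when 17.4% of all genes were. Without wild-type replicate 3 the first count was 6, when 5.42% of all genes met that rule. Separation is met more often with fewer arrays, and without knockout replicate 2 it held for 27 members and for 16.8% of all genes.

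**Figure D2:**
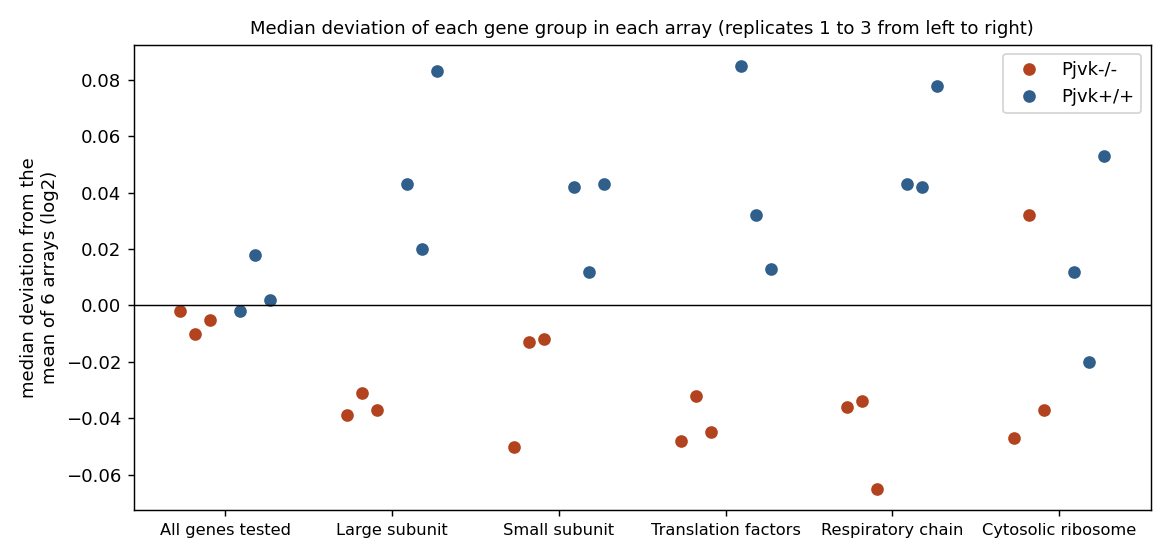
Median deviation from the mean of the 6 arrays (y axis, log2) for all genes tested and 5 gene groups, 1 point for each array. The knockout points lie below the wild-type points for the large subunit, small subunit, translation factor and respiratory chain genes, and the genotypes overlap for the cytosolic ribosome.

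Large subunit genes were lower nearly throughout. Lower means were found for 43 of 48 members and higher means for 5, and the median difference was -0.09. At an unadjusted p under 0.05, 9 were lower (18.8%, against 6.66% of all genes) and none was higher. Mrpl17, which lies near the exit of the peptide tunnel, read 7.10, 7.11 and 7.16 in knockout against 7.35, 7.30 and 7.32 in wild-type arrays. Each knockout value lay well below each wild-type value, and the difference of -0.20 (SE 0.053, unadjusted p = 0.00456, adjusted p = 0.241 by limma) was larger than the spread within either genotype. Mrpl22, a protein that lines the exit tunnel, read 6.14, 6.22 and 5.93 against 6.33, 6.33 and 6.36. Its groups did not overlap, and knockout replicate 3 was the lowest of them (difference -0.243, SE 0.078, adjusted p = 0.309). Without that array the difference was -0.16. Mrpl42 has no bacterial counterpart. It read 6.54, 6.47 and 6.34 in knockout against 6.61, 6.69 and 6.74 in wild-type arrays, again without overlap, with a difference of -0.23 (SE 0.069, adjusted p = 0.287).

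The next members on the lower side were separated by smaller steps. Mrpl16, which sits close to the peptide-forming centre, read 7.55 ± 0.012 in knockout against 7.70 ± 0.045 in wild-type arrays (SD, n = 3 each). Mrpl45, through which the ribosome is held at the inner membrane, read 8.05, 7.97 and 7.97 against 8.15, 8.11 and 8.20. Both had separated groups, with adjusted p-values of 0.34 and 0.343 in limma. Mrpl51, a mitochondria-specific protein, read 9.40 ± 0.021 and 9.55 ± 0.010, and Mrpl35 read 8.47 ± 0.026 and 8.62 ± 0.069, also without overlap. Mrpl47, at the tunnel exit, had a difference of -0.183 (SE 0.073), but wild-type replicate 2 at 6.86 lay inside the knockout range of 6.79 to 6.88. Mrpl58, a peptidyl-tRNA hydrolase built into the large subunit, had a difference of -0.157, and its highest knockout value equalled its lowest wild-type value at 7.84. Mrpl18, the relative of a bacterial protein that binds the small RNA of the large subunit, read 9.96, 9.85 and 9.83 against 9.99 to 10.02 (difference -0.123, SE 0.057, adjusted p = 0.416). The higher members of the large subunit were Mrpl52 at 0.09, Mrpl3 at 0.07, Mrpl12, the stalk protein that contacts translation factors, at 0.04, Mrpl9 at 0.027 and Mrpl14 at 0.013. None of these had an unadjusted p under 0.05.

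Small subunit genes were more divided. Of 29 members, 20 were lower, 7 higher and 2, Mrps2 and Mrps12, had equal means, with a median difference of -0.063. Mrps18b belongs to a trio of mammalian proteins related to a single bacterial small subunit protein. It read 8.42, 8.29 and 8.28 in knockout against 8.62, 8.58 and 8.57 in wild-type arrays, so that the groups did not overlap. Its difference of -0.26 (1.20-fold lower, SE 0.06, unadjusted p = 0.00204) was the lowest of all members. Mrps35, a mitochondria-specific protein, read 7.39, 7.57 and 7.58 against 7.71, 7.69 and 7.63 (difference -0.163, SE 0.067, adjusted p = 0.379), with knockout replicate 1 below the other knockout arrays. Without it the difference was -0.102.

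Mrps16 went the other way. This conserved protein of the small subunit, whose loss impairs mitochondrial translation in patients, read 8.78, 8.79 and 8.76 in knockout against 8.45, 8.68 and 8.67 in wild-type arrays. Its difference of 0.177 (SE 0.072, adjusted p = 0.377) was 0.102 without wild-type replicate 1, the lowest array, and 0.027 with the level of Y-linked genes as a covariate. Other members above zero were Mrps24 at 0.073, Mrps18c at 0.057, Mrps11 at 0.05, Mrps33 at 0.043, and Mrps10 and Mrps26 at 0.013. Mrps11 at 6.63, 6.69 and 6.63 against 6.60, 6.53 and 6.67, and Mrps6 at 9.49, 9.62 and 9.40 against 9.56, 9.58 and 9.57, both had overlapping groups. Mrpl24 of the large subunit overlapped too, at 9.56, 9.63 and 9.58 against 9.68, 9.59 and 9.63.

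**Figure D3:**
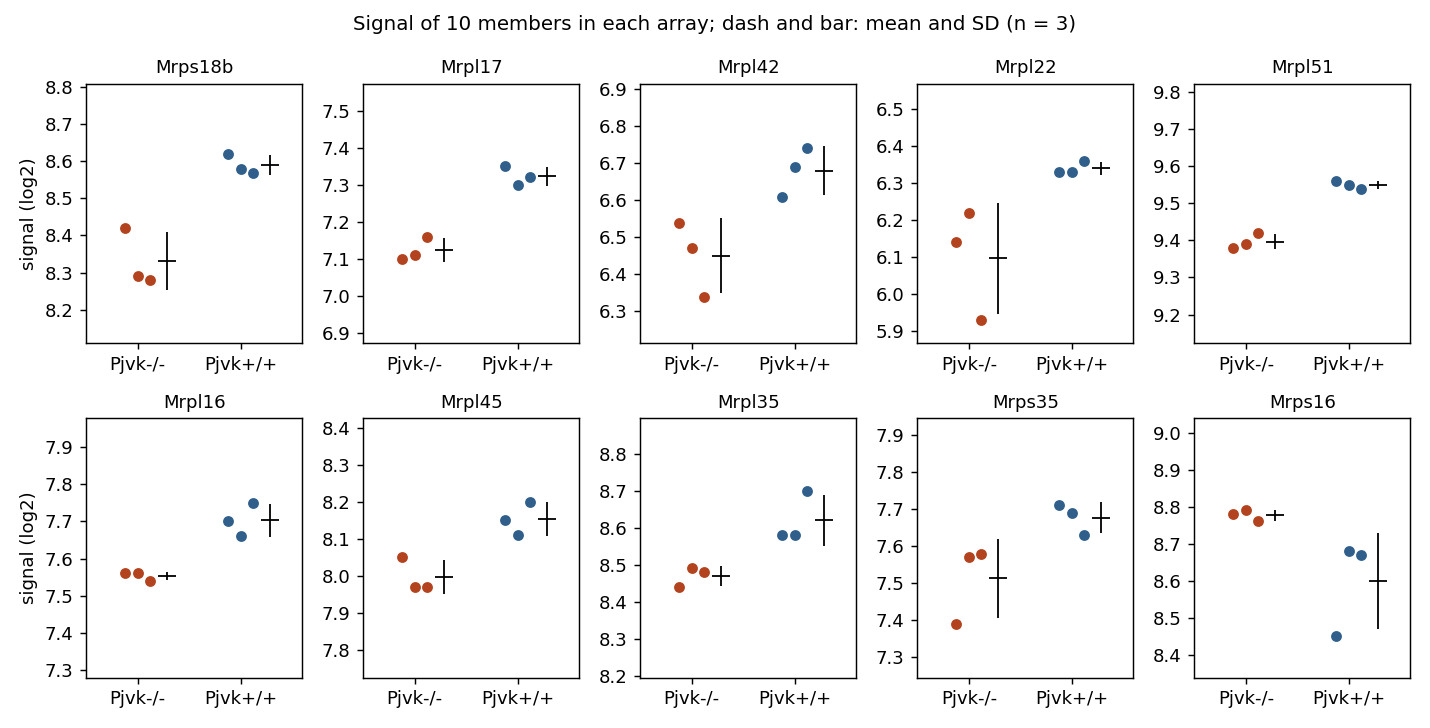
Signal in each array (points, log2) of the 9 members that were lower and the 1 that was higher with separated groups and an unadjusted p under 0.05, with the mean and SD of each genotype (n = 3). Every y axis spans the same log2 range, and no panel shows an overlap between genotypes.

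The names do not give the place of every protein. In the structure of the mammalian mitochondrial ribosome, Mrps18a and Mrps30 sit in the large subunit, and Mrps36 is not a ribosomal protein but a subunit of an oxoglutarate dehydrogenase complex. Mrps30 read 7.64, 7.67 and 7.74 in knockout against 7.92, 7.69 and 7.85 in wild-type arrays, and Mrps18a read 8.56, 8.58 and 8.44 against 8.67, 8.50 and 8.78. Their differences were -0.137 and -0.123, and both had overlapping groups. Single arrays weighed on these values: Mrps30 was at -0.087 without wild-type replicate 1, and Mrps18a at -0.058 without wild-type replicate 3, -0.08 without knockout replicate 3 and -0.198 without wild-type replicate 2. Mrps36 differed by -0.10, also with overlap. With the subunits set by structure, 45 of 50 large subunit genes were lower (median -0.09) and 17 of 26 small subunit genes (median -0.053). The large subunit median was 0.027 lower than the small subunit median by name and 0.037 lower by structure. This gap was not tested.

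Proteins without a direct counterpart in bacteria and proteins with one can be set apart in the same way, with Mrps18a and Mrps18b counted as mitochondria-specific, as in the naming of the structure, although they are related to a bacterial protein. Of 30 mitochondria-specific members, 27 were lower, with a median of -0.09, and 10 were separated downward (33.3%). Of 46 members with a bacterial homologue, 35 were lower, with a median of -0.062, and 8 were separated downward (17.4%). Separation downward held for 11.3% of all genes, and for 16.7% of them when weighted to the signal of the members. The small subunit showed the wider gap. Its 10 mitochondria-specific proteins had a median of -0.082 and 5 were separated downward, namely Mrps18b, Mrps35, Mrps34, Mrps31 and Mrps23. Its 16 proteins with bacterial homologues had a median of -0.023, with 9 lower and 5 higher. In the large subunit the medians were -0.10 for 20 mitochondria-specific proteins and -0.083 for 30 with homologues. None of these gaps was tested.

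Genes of like signal were also lower more often than not. When all tested genes were divided into deciles of mean signal, the median difference was 0.07 in decile 3 and -0.057 in decile 8. The members lay in deciles 4 to 10, with 21 in decile 7 and 19 in decile 8. Over all genes weighted to the deciles of the members, 68.3% were lower, against 81.8% of the members. By the same weighting 9.54% were lower at an unadjusted p under 0.05 and 16.7% were separated downward, against 14.3% and 23.4% of the members. Measured from the median of its own decile, the median member lay at -0.033, the large subunit at -0.04 and the small subunit at -0.017. There, 54 of the 77 members lay at or below the median of their decile, with Mrps5, Mrpl24, Mrpl40 and Mrpl55 at that median. Mrps18b lay at -0.203 from its decile median, Mrpl17 at -0.173, Mrpl42 at -0.243, Mrpl22 at -0.297 and Mrps16 at 0.223. The 16 small subunit proteins with bacterial homologues were at 0.012, with 8 of 16 at or below the decile median, Mrps5 being at it.

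**Figure D4:**
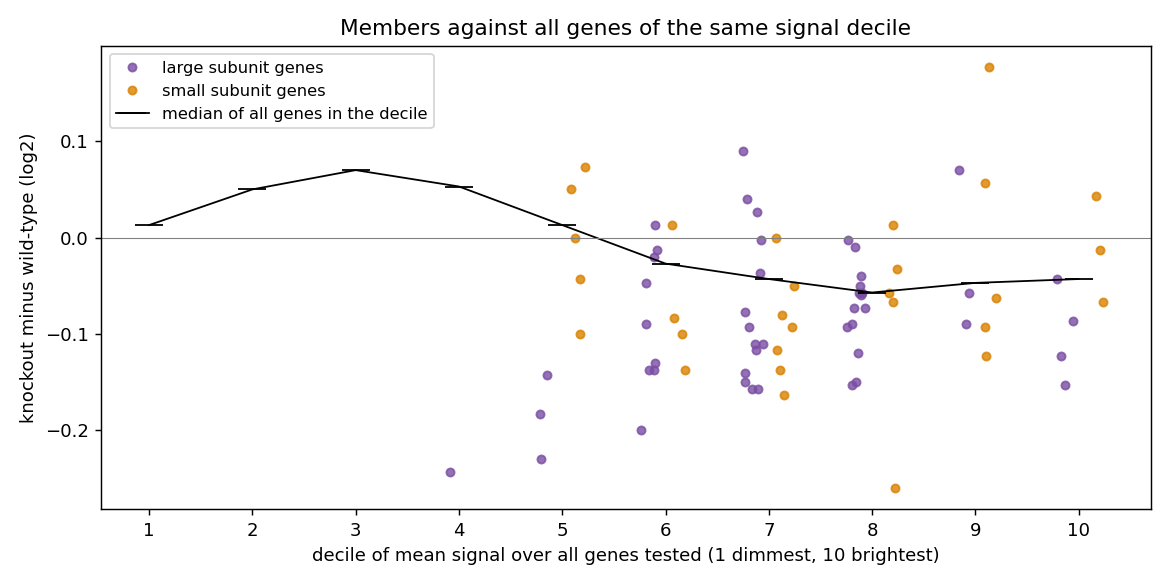
Difference between knockout and wild-type (y axis, log2) of each member by decile of mean signal (x axis, 1 dimmest to 10 brightest; points are spread sideways), with the median of all tested genes in each decile as a line. The line falls from 0.07 in decile 3 to -0.057 in decile 8, and 54 of 77 members lie on or under it.

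The normalization of the table bears on the size of the shift. With quantile normalization the median member was at -0.05 with 57 of 77 lower, and with cyclic loess at -0.045 with 57 lower, when 48.2% and 50.2% of all genes were lower. Separation downward then held for 11 members in both, when it held for 8.17% and 8.8% of all genes. The large subunit median was -0.052 and -0.05 and the small subunit median -0.025 and -0.024.

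**Figure D5:**
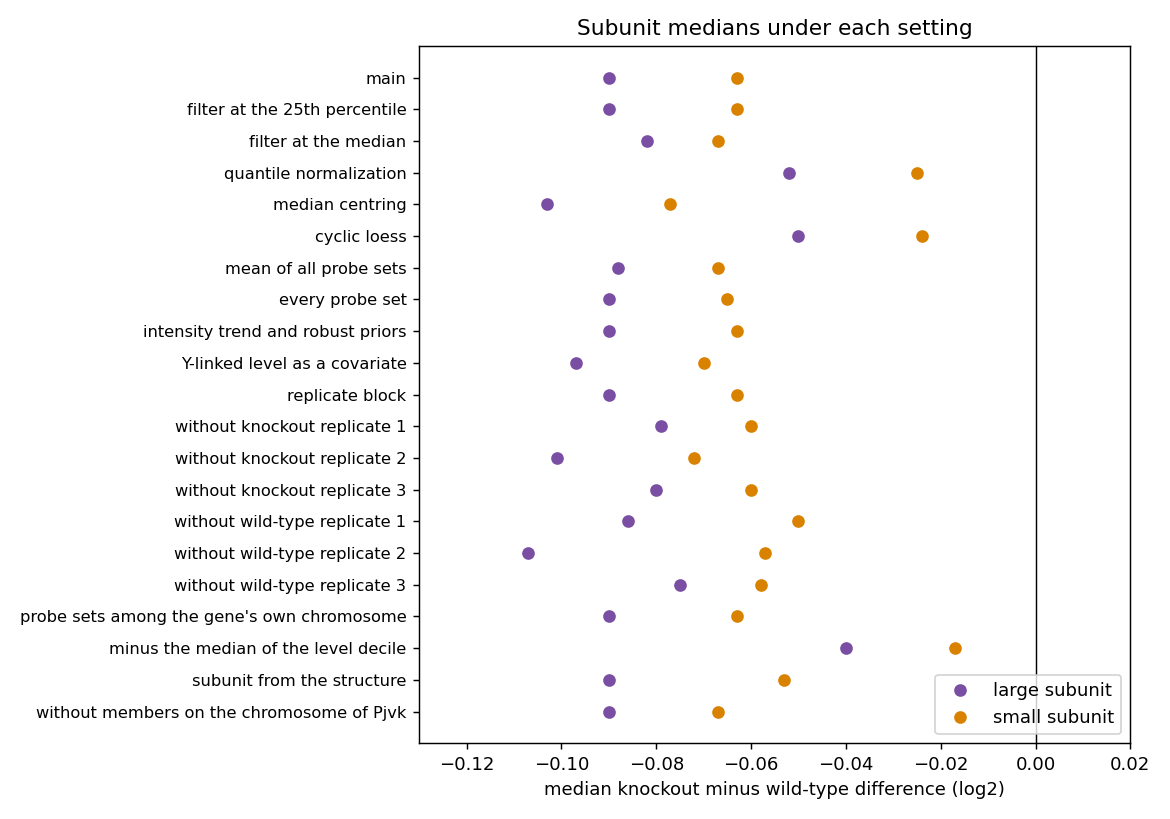
Median difference of the large and of the small subunit genes (x axis, log2) under the main setting and each alternative (y axis). Both medians lie below zero in each row, and the large subunit lies left of the small subunit in each row, by 0.015 to 0.05.

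Probe set numbers on this array follow the order of genes along chromosomes: for 96.8% of the 21698 named probe sets, the 10 neighbours on either side came mostly from the chromosome of the gene. For 7 member probe sets they came from another chromosome. These were the main probe sets of Mrpl27, Mrpl41, Mrpl51 and Mrps33, second probe sets of Mrpl23 and Mrps36, and the only probe set of Mrpl48. Mitochondrial ribosomal protein genes are known to have many processed pseudogenes, and the probe positions were not analysed here, so the values of these 7 are uncertain. For Mrpl51, the probe set among genes of its own chromosome read 8.49, 8.39 and 8.61 in knockout against 8.81, 8.69 and 8.51 in wild-type arrays. Its difference of -0.173 was like the -0.153 of the main probe set, but the groups overlapped. For Mrpl27 the sign turned, from -0.073 to 0.033. Mrpl41 was at -0.057 and -0.137 and Mrps33 at 0.043 and 0.05.

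The other genes with several probe sets gave these pairs of values. The Mrpl23 probe sets differed by -0.09 and -0.057, those of Mrps36 by -0.10 and -0.113 and those of Mrps5 by -0.057 and -0.137, the latter with separated groups in both. Those of Mrpl47 disagreed, at -0.183 and 0.023. With the 7 uncertain probe sets left out, an alternative chosen after seeing the data, 10 members were lower at an unadjusted p under 0.05 and the median was -0.082. At that p, 6.64% of all genes were lower. The chromosome of Pjvk carries 4 members, Mrps2, Mrpl41, Mrps5 and Mrps26, whose main probe sets differed by -0.057 to 0.013. The main probe set of Mrpl41 is among the 7 uncertain ones, and the second probe sets of Mrpl41 and Mrps5 were both at -0.137.

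Many promoters of the members share short motifs that the choice of members did not use. They are shown here for the 5 members with the lowest unadjusted p and for Mrps16, which went the other way. Each sequence holds the 250 bases before the RefSeq start of the gene on GRCm38.p6, read 5′ to 3′ on the strand of the gene, with matches to 3 motifs in capitals. The motifs, searched on both strands, were CCGGAAG, the core bound by ETS factors such as GABPA, the NRF1 core, and AAGATGGC, the core bound by YY1. All 3 factors are known regulators of nuclear genes for mitochondrial proteins. The windows lie at chr17:35916441-35916690 on the minus strand for Mrps18b, chr7:105811088-105811337 on the minus strand for Mrpl17, chr10:95501950-95502199 on the minus strand for Mrpl42, chr11:58171414-58171663 on the plus strand for Mrpl22, chr6:125191950-125192199 on the plus strand for Mrpl51 and chr14:20393635-20393884 on the minus strand for Mrps16.
Mrps18b: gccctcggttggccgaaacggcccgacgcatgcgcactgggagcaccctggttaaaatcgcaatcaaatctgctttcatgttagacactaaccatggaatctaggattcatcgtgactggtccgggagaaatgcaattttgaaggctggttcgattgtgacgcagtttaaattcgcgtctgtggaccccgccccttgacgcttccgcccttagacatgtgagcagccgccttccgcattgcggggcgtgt
Mrpl17: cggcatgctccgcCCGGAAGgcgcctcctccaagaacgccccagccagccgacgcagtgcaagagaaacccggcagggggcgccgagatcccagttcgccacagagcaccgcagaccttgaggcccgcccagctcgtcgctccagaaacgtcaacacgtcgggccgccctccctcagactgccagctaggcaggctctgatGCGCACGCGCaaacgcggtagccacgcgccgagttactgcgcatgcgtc
Mrpl42: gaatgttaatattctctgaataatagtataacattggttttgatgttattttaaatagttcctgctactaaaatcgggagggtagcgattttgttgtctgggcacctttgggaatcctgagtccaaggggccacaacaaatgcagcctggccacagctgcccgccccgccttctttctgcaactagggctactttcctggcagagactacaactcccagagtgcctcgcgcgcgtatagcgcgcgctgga
Mrpl22: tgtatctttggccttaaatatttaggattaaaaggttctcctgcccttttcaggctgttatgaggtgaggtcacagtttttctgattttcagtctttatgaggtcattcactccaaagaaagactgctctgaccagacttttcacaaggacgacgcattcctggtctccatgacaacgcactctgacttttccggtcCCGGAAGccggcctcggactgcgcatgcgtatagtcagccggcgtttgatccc
Mrpl51: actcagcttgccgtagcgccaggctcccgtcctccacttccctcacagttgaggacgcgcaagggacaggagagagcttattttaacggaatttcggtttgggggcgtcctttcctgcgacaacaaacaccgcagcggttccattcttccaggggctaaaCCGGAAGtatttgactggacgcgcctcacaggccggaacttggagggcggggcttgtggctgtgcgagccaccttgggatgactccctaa
Mrps16: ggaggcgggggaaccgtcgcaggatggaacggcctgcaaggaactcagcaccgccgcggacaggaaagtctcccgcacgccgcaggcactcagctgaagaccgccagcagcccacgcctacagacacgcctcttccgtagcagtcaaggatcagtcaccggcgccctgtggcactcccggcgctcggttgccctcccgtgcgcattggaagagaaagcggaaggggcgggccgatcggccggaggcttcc

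Mrpl17 holds an ETS core and an NRF1 core, and Mrpl22 and Mrpl51 hold an ETS core each. Mrps18b, Mrpl42 and Mrps16 hold none of the 3 in these 250 bases, which says only that these letters are not in this window. Mrps18b has an ETS core and Mrpl42 a YY1 core in the 50 bases after the start, which are not printed. Of the 77 members, 68 had a promoter in the RefSeq table, searched from 250 bases before to 50 after the start. The ETS core occurred in 25 of them (36.8%, against 13.6% of 15614 tested genes with a promoter), the NRF1 core in 13 (19.1% against 7.85%) and the YY1 core in 12 (17.6% against 3.77%). The letters were picked from 8 spellings looked at, among which the CCAAT box and the GC box GGGCGGGG were no more frequent in the members (38.2% against 41.7% and 23.5% against 28.2%). Whether the genotype difference depends on a motif was not tested. Members with the ETS core had a median of -0.083 and those without it -0.063, and the medians were -0.087 and -0.067 for the NRF1 core and -0.078 and -0.067 for the YY1 core. By counts, 18 of 25 members with the ETS core were lower and 36 of 43 without it, 9 of 13 with the NRF1 core and 45 of 55 without it, and 9 of 12 with the YY1 core and 45 of 56 without it.

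Among genes that serve the mitochondrial ribosome none passed the adjusted test. Of 13 translation factors, 13 were lower, with a median of -0.097. Among them 6 were separated downward (46.2%, against 11.3% of all genes). An unadjusted p under 0.05 was found for 2 (15.4%, against 6.66% of all genes on the lower side). From the median of their level deciles they lay at -0.057, with 10 of 13 below it. Mrrf, the ribosome recycling factor, read 7.87, 7.75 and 7.84 in knockout against 8.05, 7.90 and 8.04 in wild-type arrays (difference -0.177, SE 0.065, adjusted p = 0.349). Mtif2, the initiation factor that places the first tRNA, read 8.52, 8.51 and 8.49 against 8.79, 8.65 and 8.59 (difference -0.17, SE 0.065, adjusted p = 0.353). Taco1, an activator of cytochrome oxidase subunit translation, and Gfm1, an elongation factor, were at -0.113 and -0.117 with separated groups.

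Among 28 factors of ribosome assembly and ribosomal RNA modification, 22 were lower and 6 higher, with a median of -0.07. Separated downward were 9 of them (32.1%, against 11.3% of all genes). From the decile medians they lay at -0.04, with 21 of 28 below. Tfb1m, which methylates the small subunit ribosomal RNA, was at -0.18, Noa1, a GTPase needed for mitochondrial translation, at -0.193 and Mpv17l2 at -0.14, each with separated groups. Trub2, a pseudouridine synthase, read 8.13, 8.12 and 8.22 against 7.87, 8.05 and 7.96 and was higher by 0.197 (SE 0.065, adjusted p = 0.317), again without overlap. Of 16 aminoacyl-tRNA synthetases of mitochondria, 12 were lower, with a median of -0.03. They lay at 0.003 from the decile medians, with 7 of 16 below. Yars2, which charges the tyrosine tRNA, was the lowest of them, at 7.42, 7.57 and 7.49 against 7.87, 7.69 and 7.76 without overlap (difference -0.28, SE 0.068, unadjusted p = 0.00294, adjusted p = 0.215). Cars2 was at -0.09 with separated groups, and Hars2 at -0.123 and Pars2 at 0.117 with overlap.

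Genes upstream of the ribosome were taken next. Of 15 genes for the upkeep and transcription of mitochondrial DNA, 13 were lower (median -0.063, and -0.033 from the decile medians), with Tefm, an elongation factor of mitochondrial transcription, at -0.24 (SE 0.08), Tfb2m at -0.157, Top1mt at -0.14 and Lrpprc at -0.143. Of 12 regulators of nuclear genes for mitochondria, 9 were lower (median -0.025). These lay at 0.002 from the decile medians, with 6 of 12 below. Ppargc1a, the coactivator PGC-1alpha, read 9.35, 9.45 and 9.38 in knockout against 9.58, 9.55 and 9.48 in wild-type arrays (difference -0.143, SE 0.058, adjusted p = 0.373). Esrra was at -0.10 and Gabpb1 at -0.067 with separated groups, and Gabpa at -0.097 with overlap. Of 20 genes of protein import and of abundant mitochondrial proteins, 20 were lower (median -0.095, and -0.052 from the decile medians), and the pore genes Vdac1, Vdac2 and Vdac3 and the prohibitin gene Phb2 lay between -0.123 and -0.113 without overlap. The 4 measured ribosomal proteins that bear other names, Chchd1, Ptcd3, Gadd45gip1 and Dap3, were all lower, between -0.10 and -0.04, with overlapping groups.

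The nearest relatives of the members are the respiratory chain and the cytosolic ribosome. Nuclear genes of the chain, taken by name, had a median of -0.093 over 82 genes, with 73 lower, 27 at an unadjusted p under 0.05 and 42 separated downward (51.2%). Cytosolic ribosomal proteins, also taken by name, had a median of -0.027 over 53 genes, with 36 lower, 2 at that p and 3 separated downward (5.66%). Of all genes, 11.3% were separated downward and 6.66% were lower at that p, shares not weighted to the signal of these groups. Chain and cytosolic ribosomal genes had median signals at percentiles 91.4 and 97.2, and 76.0% of all genes in decile 10 were lower. From the median of their level deciles these groups lay at -0.055 and 0.01, and the members at -0.033. Across arrays, the cytosolic ribosome stood at 0.032 in knockout replicate 2 and at -0.02 in wild-type replicate 2, so its genotypes overlapped where those of the members did not. The differences between these groups were not tested.

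Markers of other cells also differed between the genotypes, and their part in the values above was not tested. The summed linear signal of 9 endothelial markers was 2793 to 3023 in knockout against 3111 to 3215 in wild-type arrays, with 8 of 9 lower. That of 9 smooth muscle and pericyte markers was 2671 to 3050 against 3117 to 3187, with 7 of 9 lower. For 11 melanocyte and stria vascularis markers the sums were 4822 to 4951 and 5183 to 5328, with 7 of 11 lower and Dct, a pigment enzyme gene, called at -1.86. Slc12a2, the brightest of the 11 at 11.36 to 11.45 and 11.44 to 11.49, weighs most in these sums. The sums without Slc12a2 or Dct were not taken. Of 19 skeletal muscle markers 13 were higher, with a median of 0.12, 7 of them and 3 of the lower ones at an unadjusted p under 0.05. Their sums of 4809 to 5029 and 5092 to 5224 were nonetheless lower in the knockout. Pvalb, also a gene of neurons and hair cells, made up 61.4% to 64.7% of each sum, and without it the sums were 1709 to 1925 and 1903 to 1966 and overlapped. Ttn, the titin gene, was called at -0.95, and Cox8b and Neb were at -0.74 and -0.47. Ttn lies on chromosome 2, as does Pjvk, and the part of that position in its difference was not tested. The bone and supporting cell lists leaned the other way, while the fibrocyte list was lower in 6 of 8, with a median of -0.098. All 7 bone markers were higher, with a median of 0.113 (sums 7188 to 9982 and 7045 to 7930), and so were 8 of 12 supporting cell markers, with a median of 0.10 (5929 to 6313 and 5979 to 6164). Of 11 hair cell markers 6 were higher (4084 to 4348 and 4094 to 4182), of 12 neuron markers 5 (19032 to 19963 and 19632 to 20265), of 7 myelin markers 5 (16692 to 17114 and 16384 to 17102), of 10 macrophage markers 5 (1588 to 1742 and 1641 to 1677) and of 8 fibrocyte markers 2 (10106 to 11448 and 11099 to 11836), all with overlapping sums. Of 2 measured red blood cell markers, 1 was lower, with sums of 222 to 241 and 239 to 248. Xist, a transcript of female cells, read 9.77, 9.83 and 9.96 in knockout against 9.43, 9.36 and 9.92 in wild-type arrays. Y-linked genes had a mean of 7.58, 7.51 and 7.39 in knockout against 8.05, 7.86 and 7.65 in wild-type arrays. Both kinds of transcript were thus read on every array, as in RNA from animals of both sexes. The genotypes did not overlap in the Y-linked mean, so a fit with it separates the covariate from the genotype only in part and is less precise. With this mean as a covariate the median member was at -0.076 and 64 of 77 were lower. At an unadjusted p under 0.05, 2 members were lower, as against 3.03% of all genes. Of the 23 members named by the rule, 8 moved by over 1.5 times with this covariate, 7 of them closer to zero. Of 29 other genes named, 14 did, 11 of them closer to zero, among them Mtif2 at -0.014, Tfb2m at -0.034, Mpv17l2 at -0.04, Gabpa at -0.005 and Hars2 at -0.007.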

How the data were processed

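Total RNA was labelled from 100 ng per sample for an Affymetrix mouse gene ST array, per the labels' protocols. The authors deposited 1 table of log2 signals, rounded to 2 decimals. Affymetrix Expression Console is the tool listed by the submitters' processing notes, and neither summarization nor normalization is stated in the sources used here. The table was used as deposited. Of its probe sets, 21789 had 1 symbol, 1621 had several and 12147 had none, and only the first were used. Symbols were updated through a table of GRCm38.p6 genes, which matched 21698 of them and all 85 member probe sets.

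The comparison of genotypes used lmFit and eBayes of limma 3.58.1 (R 4.3.3) on 1 probe set per gene, with Benjamini-Hochberg adjustment over all 19938 genes, 4 residual and 4.59 prior degrees of freedom. The fit was tested on simulated data. Differences are knockout minus wild-type. The smallest two-sided p of an exact permutation test of 3 against 3 arrays is 0.1, so none is given. The labels do not say that samples came from separate animals, so p-values reflect only how far these samples spread, and that spread may be technical. The number of arrays limits the precision. No pair of arrays held identical values.

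The members and the gene lists were chosen with earlier results of these data known. The named genes were members with separated groups and an unadjusted p under 0.05, the 3 with the highest and the 3 with the lowest signal, those with several probe sets, Mrps18a, Mrps30 and Mrps36, up to 4 genes of each of 7 pathway lists, and Pjvk. Other members are named from the counts they belong to, after their values were seen. Subunit and descent were assigned from general knowledge of the ribosome's structure. Of the 4 Y-linked genes intended as a covariate, 3 had a probe set with 1 symbol and were used. Signals of different probe sets were not compared as transcript levels. Alternatives were other filters, normalizations, probe set rules, priors, covariates, a replicate block and leaving out each array.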

Additional observations from a re-analysis of the deposited data

How the results depend on the processing

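No member was called at an adjusted p under 0.05 in limma under any alternative fitted, and the lowest member adjusted p was 0.0527, with an intensity trend and robust priors. The medians of the large and the small subunit stayed below zero under all 20 alternatives. Of all genes, 7 were called, and 20 with a filter at the 25th percentile of signal, 45 with a filter at the median, 18 with median centring, 112 with the trend and robust priors, 0 with the Y-linked covariate, 1 with the replicate block and 2 to 6 with 1 array left out. At 0 called, 3.03% of genes were lower at an unadjusted p under 0.05. Members lower at that p numbered 11, but 6 with cyclic loess, 2 with the Y-linked covariate and 6 to 17 with 1 array left out (6 without wild-type replicate 3, 17 without wild-type replicate 2). The shares of all genes were 6.66% in the main fit, 5.36% with cyclic loess and 4.57% to 6.55% with 1 array left out. Members separated downward numbered 18, but 11 with quantile normalization, 11 with cyclic loess and 20 to 37 with 1 array left out. Of all genes, these rules took in 11.3%, 8.17%, 8.8% and 15.2% to 17.9%.

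The median difference of all members was -0.05 with quantile normalization, -0.045 with cyclic loess and -0.033 from the decile median. For the large subunit these values were -0.052, -0.05 and -0.04, and for the small subunit -0.025, -0.024 and -0.017. The large minus small subunit difference of -0.027 was -0.015 with a filter at the median, -0.037 with subunits from the structure and -0.05 to -0.017 with 1 array left out. Signs turned for Mrpl27 on its own chromosome's probe set (0.033), Mrps33 with the Y-linked covariate (-0.001) and Dap3 from its decile median (0.003), and the cause was not tested. Pjvk was called with the trend and robust priors (-0.593). In deviations from their genotype means, same-numbered arrays correlated at 0.0759, 0.0186 and -0.0094, and the other pairs between -0.106 and 0.0929. These values show no pairing by number, but they cannot exclude one, and the labels state none. With the replicate block 9 members were lower at an unadjusted p under 0.05, when 5.84% of all genes were.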

Other observations

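Mrps18b, the member with the lowest p, lies 4 tested genes from H2-T24 on chromosome 17. H2-T24, a class I histocompatibility gene, was one of the 7 genes called and had a difference of -0.65 (SE 0.06, adjusted p = 0.00997 in limma). The genes between them had differences of -0.01 for Ppp1r10, -0.02 for Abcf1 and 0.09 for Prr3 (SE 0.08), with overlapping groups. On the other side of Mrps18b, Atat1 was at 0.02, 2310061I04Rik at -0.14 with overlap and Dhx16 at -0.11 with separated groups. The next nearest member to a called gene was Mrpl14, 115 tested genes from H2-T24, with a difference of 0.013. This neighbourhood was chosen after its values were seen, and no cause was tested.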
